A study of Mus musculus with 8 samples.

Results

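The annotation deposited with a single-nucleus RNA-seq study of the mouse low thoracic spinal cord names 144 nuclei MIP_Tfap2b, and these are the MIP neurons described here. They were chosen by the start of their annotated name, MIP, over all 8 libraries, and 1 subtype carries that start. They make up 3.53% of the 4076 neuronal nuclei and come out of 12447 nuclei in all, which places them 10th by number among 28 neuron subtypes in 11 families of names. The first letter (D, M or V) was taken to stand for a dorsal, middle or ventral position and the second (E or I) for excitation or inhibition, while the labels leave the last letter unexplained. No value in the files gives a nucleus its place in the cord. The MIP nuclei held 1426931 UMIs (counts of distinct captured transcripts), with a median of 9881 per nucleus against 8226 in the other neurons.

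Inhibitory interneurons of the cord release GABA, glycine or both. The enzymes Gad1 and Gad2 make GABA, the membrane transporter Slc6a5 supplies the terminal with glycine, and Slc32a1 loads both transmitters into vesicles. Most dorsal inhibitory neurons arise from precursors that switch on Pax2 and, in some lineages, the AP-2 transcription factors Tfap2a and Tfap2b, and neurons of the intermediate cord relay sensory and descending input to motor circuits.

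All nuclei came from wild-type C57BL/6 mice, and the labels used here give neither age nor time after injury. In experiment 1, each of 2 uninjured replicates has a traced fraction, sorted for GFP, and an untraced fraction without GFP. Experiment 2 has 2 libraries after hemisection, a cut through one side of the cord, and 1 uninjured library, and experiment 3 has 1 library of traced, regenerating neurons. Traced replicates held 2 and 1 MIP nuclei, untraced replicates 6 and 3, the uninjured library of experiment 2 held 79, hemisection replicates 46 and 4, and the regenerating library 3. MIP UMIs per library ran from 2628 (regenerating) to 812424 (uninjured, experiment 2), with 427267 and 63437 after hemisection and 72756 in untraced replicate 1. In hemisection replicate 1, 12 of the 46 MIP nuclei held under 2000 UMIs, and in the uninjured library of experiment 2 none did (0 of 79). Neurons made up 89.6% of nuclei in hemisection replicate 1, 7.15% in replicate 2 and 32.4% in the uninjured library. In that uninjured library the 2148 neurons carry a barcode sequence and the 4489 other nuclei carry none, and whether it joins several preparations is not given in the labels. Across libraries 4 barcodes occurred more than once, 1 of them on a MIP nucleus.

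Tfap2b, the AP-2 factor that names the subtype (chromosome 1, 19208914 to 19238576, GRCm38), was sparse. A Tfap2b UMI was present in 28 of 144 MIP nuclei, with at most 5 in a nucleus. By library it was found in 12 of 79 nuclei of the uninjured library, 9 of 46 and 2 of 4 after hemisection, 3 of 6 and 1 of 3 untraced, 1 of 2 and 0 of 1 traced, and 0 of 3 regenerating nuclei. MIP nuclei with a Tfap2b UMI were as deep as those without, with medians of 9820 and 9910 UMIs. Of the 95 neurons with a Tfap2b UMI, 28 were MIP, 35 VIP, 12 DI, 7 DE, 7 VEP, 4 MIL and 2 VEL. The share of nuclei with a UMI was 19.4% in MIP against 0.364% in the dorsal excitatory (DE) family and 0.208% in oligodendrocytes, at median depths of 9881, 7108 and 3072 UMIs. In the other inhibitory families, 35 of 324 VIP, 12 of 794 DI and 4 of 72 MIL nuclei had a Tfap2b UMI. No VIL nucleus had any. The level was 22.2 CPM (UMIs of the gene scaled by the UMIs of all genes in the MIP nuclei of a library) in the uninjured library of experiment 2 and 42.1 CPM in hemisection replicate 1, the highest of 27 and of 23 subtypes with at least 10 nuclei. In the uninjured library the next subtype, VIP_V1_Mafa, stood at 21.3 CPM, so the top 2 are close. With 4 nuclei in hemisection replicate 1, VIP_V1_Mafa was not ranked there. In that library the VIP family stood at 24 CPM and the highest other ranked subtype, DI_Rorb, at 19.6 CPM. Summed over nuclei, MIP thus held the highest Tfap2b level among the ranked subtypes of both libraries, while most single MIP nuclei carried no Tfap2b UMI at this depth. Gad1 was in 75 of the 144 nuclei and ranked 9th of the 27 subtypes in the uninjured library.

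The MIP nuclei carried inhibitory transmitter genes of both kinds. A UMI of Gad1 or Gad2 was present in 122 nuclei, of Slc6a5 in 104, and of both kinds in 95, and 132 of 144 nuclei had a UMI of at least 1 of Gad1, Gad2, Slc6a5 or Slc32a1. The 12 without any had a median of 1379 UMIs. A glutamate transporter UMI was present in 13 nuclei, 11 of which also had Gad1, Gad2 or Slc6a5. With each nucleus thinned to 2000 UMIs, which left 128 MIP nuclei and put 16 aside, 43.8% had a Gad1 or Gad2 UMI, 40.6% a Slc6a5 UMI and 17.2% both. Glutamate transporter UMIs were in 1.56% of them and in 35.1% of DE nuclei.

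Set beside the other inhibitory families at the same thinned depth, both kinds together were seen in 9.34% of dorsal inhibitory (DI) nuclei, 10.3% of the other middle inhibitory family (MIL), 12.2% of VIP and 19.4% of VIL nuclei, and in 0% of 1693 DE nuclei. Gad2 alone stood at 32.8% of thinned MIP nuclei, against 24.9% in DI, 23.5% in MIL, 16.9% in VIP and 38.8% in VIL. Slc6a5 stood at 40.6%, against 23.5% in DI, 38.2% in MIL, 48.3% in VIP and 36.4% in VIL. The MIP share of Slc6a5 thus lay between those of the DI and VIP families. The annotation names these same nuclei, so these differences between families are a description and carry no test.

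**Figure D1:**
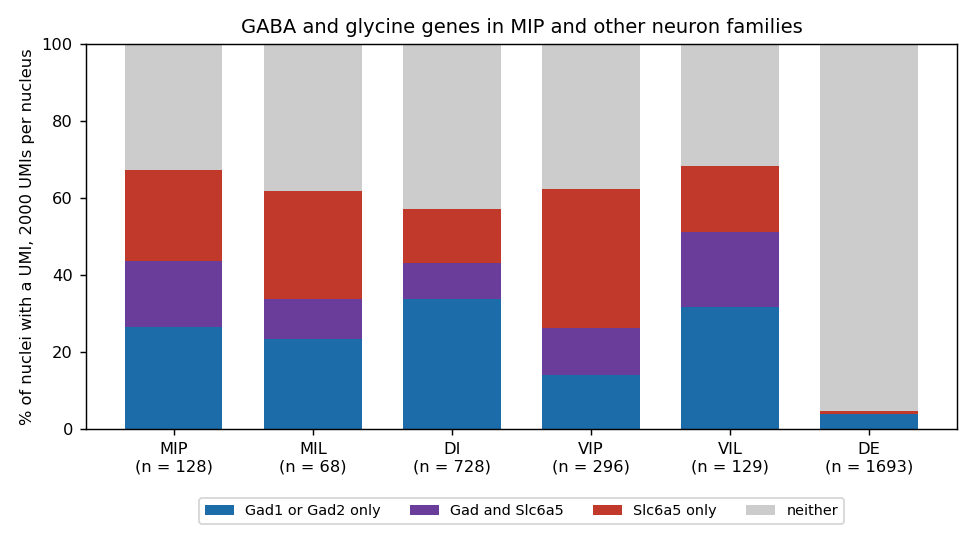
Share of nuclei (y axis, percent) with a UMI of Gad1 or Gad2, of Slc6a5, of both or of neither, with every nucleus thinned to 2000 UMIs, in 6 name families (x axis, n is the number of nuclei). Both kinds occur together in 17.2% of MIP nuclei and in 0% of DE nuclei.

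Levels of the transmitter genes were read in the 3 libraries with at least 5 MIP nuclei and 20000 MIP UMIs, which hold 131 of the 144 nuclei: the uninjured library of experiment 2, hemisection replicate 1 and untraced replicate 1, in that order below. Gad2 was at 224, 176 and 467 CPM in MIP nuclei against 62, 59.9 and 80 CPM in the other neurons, and Slc6a5 at 229, 239 and 220 CPM against 107, 56.1 and 67.2 CPM. Gad1 was at 83.7, 115 and 96.2 CPM against 50.9, 57.6 and 60.5 CPM. All 5 inhibitory transmitter genes exceeded the other neurons in all 3 libraries, but against other inhibitory neurons alone Gad1 was lower, with a log2 ratio of -0.56. Slc17a6, the vesicular glutamate transporter, was at 12.3, 25.7 and 0 CPM against 152, 124 and 140 CPM.

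The genes with the highest ratio of MIP level to the level in all other neurons were Tfap2b, Klhl14, Piezo2 and Tcf4, with log2 ratios of 3.36, 2.66, 2.16 and 2.08. This ratio sets the median MIP level over the 3 libraries against the median level of the other neurons over the same libraries (1 CPM added to both), and the 2 medians can come from different libraries. In the order of libraries above, the ratios within a library were 1.83, 2.21 and 3.21 for Klhl14 and 1.34, 1.57 and 2.08 for Tcf4. Klhl14, a Kelch-family protein, stood at 64, 115 and 151 CPM in MIP nuclei against 17.3, 24 and 15.4 CPM in the other neurons. Tcf4, a basic helix-loop-helix factor, stood at 579, 1077 and 1045 CPM against 228, 362 and 246 CPM. In both genes the 3 MIP values lay above the 3 values of all other neurons combined. Single subtypes stood higher: VIL_V0d_Bhlhe22 held 112 and 147 CPM of Klhl14 in the uninjured library and hemisection replicate 1, and for Tcf4 MIP ranked 6th of 27 and 5th of 23, below the VIL family at 894 and 1781 CPM.

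Piezo2, a mechanically gated cation channel, stood at 19.7, 79.6 and 137 CPM in MIP nuclei against 17.1, 25.3 and 11.9 CPM in the other neurons. Its UMIs were uneven: 21 nuclei held all 67, 5 nuclei held 61.2% of them, and the log2 ratios within a library were 0.2, 1.62 and 3.42. Nkain3, which encodes a partner of the sodium pump, was steady at 931, 910 and 1058 CPM against 332, 345 and 352 CPM, the highest of 27 subtypes in the uninjured library and 3rd of 23 in hemisection replicate 1, where VIL_V0d_Bhlhe22 held 1869 CPM. The remaining genes of the highest 20 were Gad2, Nxph4, Slc6a5, Slc32a1, Pnoc, Nckap5, Ndufb5, Vgf, Mcc, Il11ra1, Gpc3, Tpcn1, Lgi3, Fbxo36 and Cox4i1, with ratios down to 1.38, and the next gene outside stood at 1.37. For Ndufb5, Vgf and Cox4i1 the place in this group leans on untraced replicate 1, with ratios of 1.56, 1.75 and 1.4 there and of 0.11, 0.18 and 0.3 in the uninjured library. With counts pooled over all libraries their ratios were 0.17, 0.46 and 0.26.

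The 20 genes were picked by their ratio over these same 3 libraries, so a higher level there is largely fixed by the choice. Of the 20, 18 were higher in MIP in all 3 libraries. The 2 others were Pnoc, the precursor of nociceptin, at 7.02 CPM against 12.2 CPM in hemisection replicate 1, and Gpc3, a cell-surface glypican, at 0 CPM against 50.6 CPM in untraced replicate 1. All 20 were higher than in the other inhibitory neurons alone, 11 of them by at least 1 on the log2 scale. Over the 10371 genes with at least 10 MIP UMIs, not chosen by ratio, the median log2 ratio was 0.02. Of them 16.5% were higher in all 3 libraries and 17.1% lower. With nuclei thinned to 2000 UMIs the ratio of Nxph4 came to 0.02.

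The 8 genes with the lowest ratio were Syt10, Myo5b, Mctp2, Pkd1l2, Tmem163, Bnc2, Pde11a and Lmo3. They were lower in all 3 libraries, again those used to choose them. Pde11a, a phosphodiesterase, stood at 25.8, 9.36 and 0 CPM in MIP nuclei against 313, 377 and 317 CPM in the other neurons, whose highest subtype was DE_Reln_Nmur2. Tmem163, a zinc transporter of vesicles, stood at 3.69, 65.5 and 0 CPM against 173, 219 and 196 CPM, and 1 nucleus held 58.1% of its 31 MIP UMIs. Syt10, a synaptotagmin, had 3 UMIs in all MIP nuclei.

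**Figure D2:**
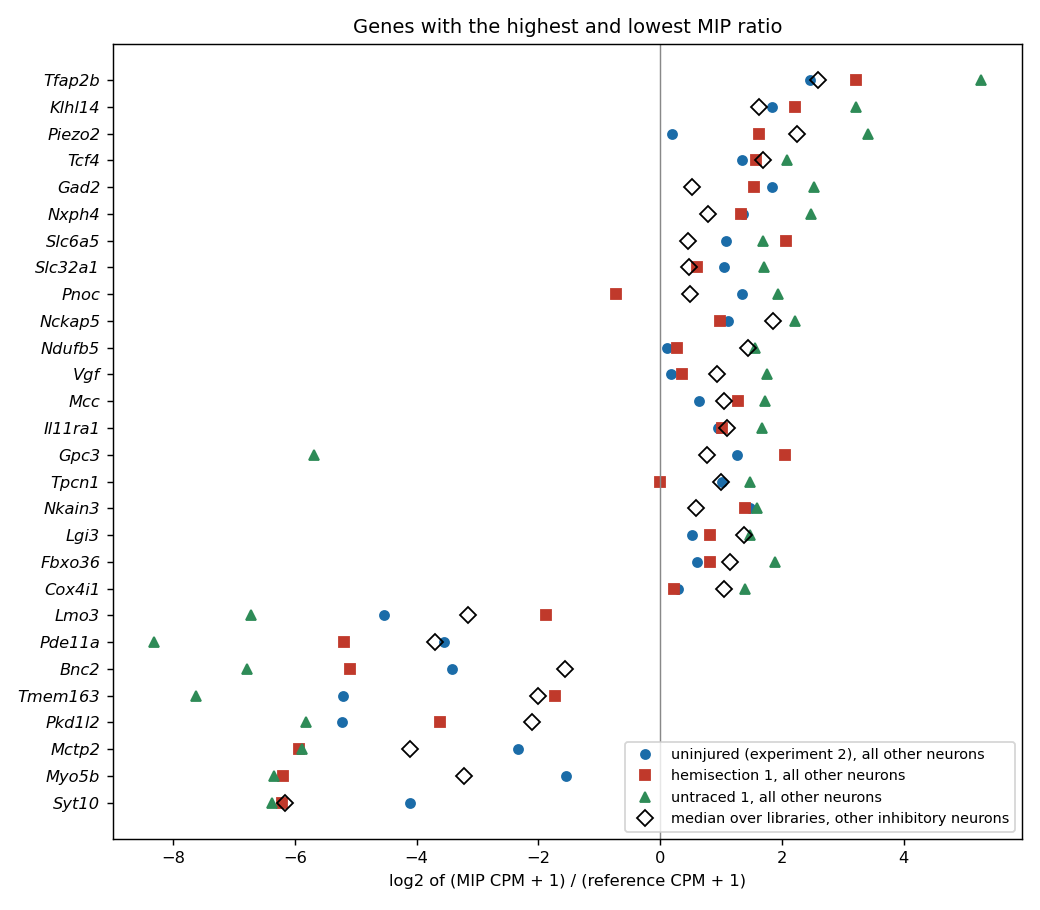
Log2 ratio (x axis, 1 CPM added to both) of the MIP level to that of all other neurons in 3 libraries, and as an open diamond the ratio of medians over libraries to other inhibitory neurons, for the 20 genes with the highest and the 8 with the lowest ratio of medians to all other neurons (y axis). Tfap2b, Klhl14 and Tcf4 lie right of 0 in each library, while Pnoc and Gpc3 each fall left of 0 in 1 library.

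Transcription factors of inhibitory and of excitatory lineages were both detected. Of 15 dorsal inhibitory factors, 9 had at least 10 MIP UMIs, and Tfap2b, Pax2, Pax8 and Lhx5 were higher than in the other neurons in all 3 libraries while Rorb was lower. The median log2 ratio of the 9 was 0.67 against all other neurons and -0.57 against the other inhibitory neurons. Pax2 was at 185, 293 and 82.5 CPM against 75.7, 94.1 and 74.5 CPM. Of 12 dorsal excitatory factors, the 6 with enough UMIs (Sox5, Maf, Ebf1, Ebf2, Ebf3 and Lmx1b) were lower in all 3 libraries. Ebf1 stood at 226, 686 and 0 CPM against 2355, 2450 and 2765 CPM. Sums over each list were taken in the uninjured library and hemisection replicate 1. Dorsal excitatory factors held 689 and 1184 CPM in MIP nuclei, against 3833 and 4429 CPM in the other neurons. Dorsal inhibitory factors held 462 and 669 CPM, against 350 and 354 CPM. Ebf1 made up 226 and 686 CPM of the excitatory sum, and 110 of its 293 UMIs in hemisection replicate 1 came from 1 nucleus. It is not confined to excitatory neurons here, at 2057 and 1793 CPM in the DI family.

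Of 13 ventral inhibitory factors, 9 had no UMI in any MIP nucleus, and of 10 ventral excitatory factors, 9 had none. A count of 0 over all MIP nuclei allows a level of up to 2.1 CPM and a share of nuclei with a UMI of up to 2.08%.

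Factors of birth order gave no single direction. Of 7 early-born projection factors 4 had enough UMIs, and Pou2f2 and Onecut2 were lower than in the other neurons in all 3 libraries. Of 8 late-born local circuit factors 6 had enough, and Tcf4, Neurod6 and Neurod2 were higher while Nfia and Nfix were lower. Zfhx3 is a marker of spinal neurons born early, many of which send long axons, and Nfib marks later-born neurons of local circuits; both were present. Zfhx3 in MIP nuclei was at 309 and 274 CPM in the uninjured library and hemisection replicate 1, against 601 and 1004 CPM in VIP, 202 and 453 CPM in MIL and 104 and 53.7 CPM in DI. Nfib was at 171 and 145 CPM, against 66.3 and 25.7 CPM in VIP, 49.2 and 4.67 CPM in MIL and 232 and 253 CPM in DI. In thinned nuclei of the uninjured library 22 of 79 had a Zfhx3 UMI, 19 an Nfib UMI and 4 both. On these 2 genes MIP lies between VIP and DI in each of the 2 libraries, but Nfia, at 99.7 and 74.9 CPM in MIP, was below both DI (168 and 109 CPM) and VIP (321 and 242 CPM). Against all other neurons the log2 ratios were -0.03 for Zfhx3 and 0.15 for Nfib.

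Over 3425 genes of the uninjured library, with each subtype thinned to 164755 UMIs, the profile of MIP ranked closest to VIP_V1_Mafa and VIP_V1_Foxp2, with Spearman coefficients of 0.816 and 0.815. DI_Rorb stood at 0.796, and DE_Reln_Trhr was farthest at 0.534. These are descriptions over genes of 1 library, and neighbouring values differ by little.

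Of 20 neuropeptide genes 8 had enough UMIs, and 5 (Npy, Nts, Cck, Sst and Tac2) were lower in all 3 libraries, with a median log2 ratio of -2.92 over the 8. Tac2, the neurokinin B precursor, was at 18.5, 7.02 and 0 CPM against 330, 72.5 and 162 CPM. Of 16 glutamate receptor genes 15 had enough UMIs, with a median of -0.13. Grin2d, Grid1, Grin2b, Grin3a and Gria2 were lower in all 3 libraries and Grik3, Grin1 and Gria4 higher, with Grik3, a kainate receptor subunit, at 204, 307 and 165 CPM against 90.4, 90.4 and 65.2 CPM. Of 18 ion channel genes, the sodium channel genes Scn8a, Scn1a and Scn9a were higher and 8 were lower, among them Kcnh8 at 75.1, 30.4 and 0 CPM against 157, 177 and 162 CPM. Among 24 guidance and adhesion genes Cntn4, Robo1, Slit2 and Unc5c were higher and 7 lower. Cntn4, a contactin, stood at 2027, 2343 and 2790 CPM against 1047, 1280 and 1200 CPM.

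MIP nuclei formed a small share of neurons in every library. The share was 2.5% and 4% in traced replicates, 1.69% and 2.44% in untraced replicates, 3.68% in the uninjured library of experiment 2, 4.6% and 3.7% after hemisection and 1.26% in the regenerating library. The exact binomial 95% intervals, which cover counting error only, ran from 2.92% to 4.56% in the uninjured library, from 3.39% to 6.09% in hemisection replicate 1, from 0.624% to 3.65% in untraced replicate 1 and from 0.261% to 3.64% in the regenerating library. The lowest shares, in the regenerating library and untraced replicate 1, and the highest, in hemisection replicate 1, thus have intervals that overlap.

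The share was compared between groups to ask whether MIP neurons were more or less frequent among neurons traced from the lumbar cord, after hemisection or among regenerating neurons. No difference of the MIP share was called in any of these 3 comparisons (edgeR quasi-likelihood test over 11 name families). Traced and untraced libraries averaged 3.25% ± 1.06 and 2.06% ± 0.53 (SD, n = 2 each), a log2 difference of 0.59 with an SE of 1.26 and a 95% interval of -1.97 to 3.15 (adjusted p = 0.783; exact permutation p = 0.333, where 2 against 2 cannot go below 0.33). In that comparison 18.2% of the families were called. The traced share rests on 3 MIP nuclei.

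Hemisection libraries averaged 4.15% ± 0.636 (SD, n = 2) against 3.68% in 1 uninjured library, a log2 difference of 0.29 with a 95% interval of -0.39 to 0.97 (adjusted p = 0.531), where 36.4% of the families were called. The regenerating library against the traced libraries gave a log2 difference of -1.17 with an interval of -4.22 to 1.89 (adjusted p = 0.552), where 0% of the families were called. Against the untraced libraries of experiment 1, the hemisection share gave a log2 difference of 1.25 with an interval of 0.03 to 2.47 (unadjusted p = 0.0456, adjusted p = 0.468, edgeR), where 0% of the families were called. Groups with 1 library were assumed to vary like the replicated ones. A share is of the nuclei recovered, so fewer MIP cells and poorer recovery of their nuclei cannot be told apart.

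**Figure D3:**
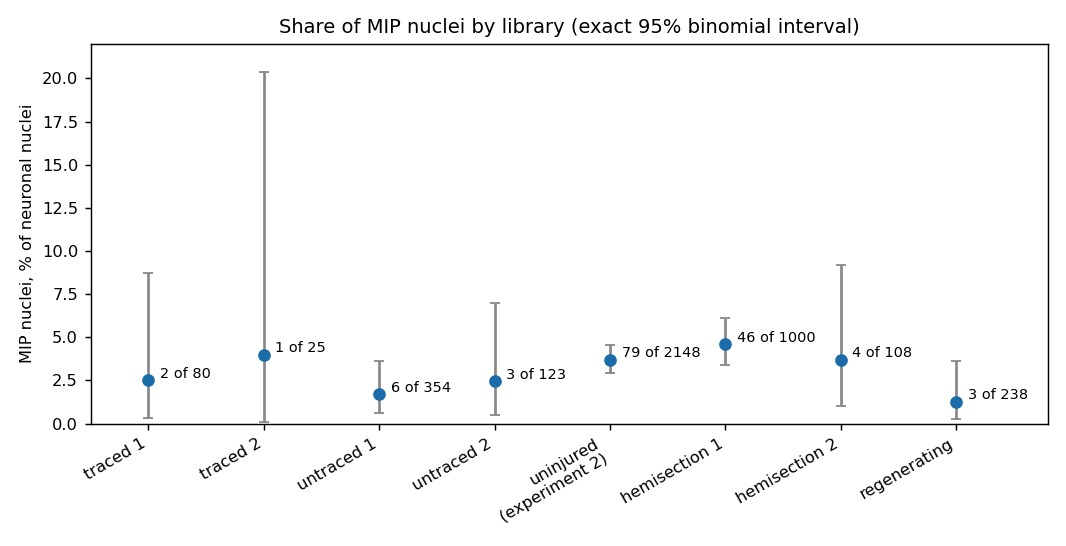
MIP nuclei as a percent of neuronal nuclei (y axis) in the 8 libraries (x axis), with exact 95% binomial intervals and the numbers of nuclei. The intervals of the uninjured library and of hemisection replicate 1 overlap, and those of the traced libraries span most of the range.

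Within MIP nuclei, Chrm4 and 5 of 10 interferon response genes tested were called higher after hemisection than in the uninjured library of experiment 2. Called lower were the vesicular transporter Slc32a1, 10 of 12 mitochondrial transcripts, 4 of 5 neuropeptide genes, 4 of 11 sterol synthesis genes, 6 of 9 chaperones and 4 of 9 neurofilament and axon cytoskeleton genes. Of the 147 genes called in MIP nuclei, 136 were also called in the other neurons of the same libraries. The sign was the same in 144. The same counts over all tested genes are not given here, so no agreement particular to the called genes can be read from them. With 1 library a group there is no test: between hemisection replicate 1 and the uninjured library of experiment 2, 21 genes were at least 4-fold higher and 195 at least 4-fold lower among 7129 genes with a mean of 20 CPM, together 3.03%. Adding hemisection replicate 2 with its 4 nuclei left 1 residual degree of freedom, and in this fit of 4 libraries 147 of 6482 genes were called (2.27%), 15 higher (0.231%) and 132 lower (2.04%), with 554 at an unadjusted p under 0.05.

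These calls rest on the spread between 2 hemisection libraries, and the labels do not say whether these came from separate animals. In a fit of all 8 libraries 25 of 2388 genes were called, all 25 among the 147, and without either hemisection replicate 1 or 2 none was (0 of 875 and 0 of 869, with 12 and 7 at an unadjusted p under 0.05). DESeq2 on the same 4 libraries called 0 genes, with 55 at an unadjusted p under 0.05 and a smallest adjusted p of 0.0887. Values per library are therefore given first below, in the order uninjured library of experiment 2, hemisection replicate 1, hemisection replicate 2. Untraced replicate 1, an uninjured library of experiment 1, is named where it is given, and a value of 0 there still allows 41.2 CPM.

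Chrm4, the gene of the M4 muscarinic receptor for acetylcholine (chromosome 2, 91927249 to 91928688, GRCm38), was at 0, 185 and 410 CPM and at 0 CPM in untraced replicate 1. Both hemisection libraries lay above both uninjured ones, but in replicate 2 all 26 UMIs sat in 1 of 4 nuclei, while in replicate 1 the 79 UMIs were spread over 17 of 46 nuclei. Against a floor of 3 counts in the uninjured library, Chrm4 was at least 50.1-fold higher in replicate 1 alone and at least 57.9-fold over both replicates (adjusted p = 6.1e-17, edgeR with 4 libraries; 1.7e-05 with 8). Against the floor of untraced replicate 1 the bound over both replicates was 5.19-fold.

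Ifit1, an interferon-induced antiviral protein, was at 3.69, 110 and 347 CPM and at 0 CPM in untraced replicate 1, with 69 UMIs after hemisection against 3 (ratio 38.1, counting interval 12.5 to 189; adjusted p = 1.34e-09, and 0.00674 with 8 libraries). It was found in 3 of 79, 10 of 46 and 2 of 4 nuclei, so a minority of MIP nuclei carried it in both larger libraries. Herc6, an interferon-induced ubiquitin ligase, was at 8.62, 49.1 and 158 CPM (169 CPM in the 3 nuclei of untraced replicate 2), and Nlrc5, an activator of MHC class I genes, at 1.23, 46.8 and 78.8 CPM. Of 18 interferon response genes 10 were tested, and 5 were higher, among them Ifit1, Herc6, Rnf213 and Nlrc5, with a median log2 fold change of 2.58 over the 10 against -0.01 over all tested genes.

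Igkc, which encodes the constant region of kappa light chains, was at 1.23, 65.5 and 94.6 CPM, in 14 of 46 and 4 of 4 nuclei after hemisection and in 1 of 79 before. Igkc is a gene of plasma cells, and in the other neurons it stood at 0.502, 43 and 143 CPM. The part that RNA from other cells has in its level was not tested. Fign, a microtubule-severing protein, rose from 48 to 332 and 94.6 CPM (log2 fold change 2.34, SE 0.49, adjusted p = 0.000236). In replicate 1, 53 of its 142 UMIs came from 1 nucleus, and with 8 libraries it was not called (adjusted p = 0.194). Tacr3, the neurokinin B receptor, stood at 22.2, 77.2 and 173 CPM, and Sema5a, a guidance cue, at 18.5, 101 and 31.5 CPM. Sema5a was at 124 CPM in untraced replicate 1, above both hemisection values, and neither gene was called without a filter on low counts (adjusted p = 0.0989 for Tacr3 and 0.121 for Sema5a, edgeR). Nos1, the neuronal nitric oxide synthase, was called higher on replicate 1 alone, with 14.8, 126 and 0 CPM, so its groups overlap.

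The summed level of 10 oligodendrocyte markers in MIP nuclei was 816, 77.2 and 110 CPM, with 247 CPM in untraced replicate 1, and in the other neurons 797, 85.4 and 193 CPM. Of 4 such genes tested 2 were called lower, among them Mbp, a myelin protein (log2 fold change -2.18, SE 0.59, adjusted p = 0.0144, edgeR). Their level moves in MIP nuclei as in the other neurons, and its part in the other differences was not tested. Astrocyte markers summed to 164, 53.8 and 31.5 CPM and microglia markers to 199, 96 and 284 CPM, and 0 of their 4 tested members were called.

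Of 20 neuropeptide genes 5 were tested and 4 called lower against the uninjured library, with a median of -4.32, and DESeq2 called 0 of them. The 4 called genes passed the filter on low counts only through uninjured libraries, so their number and the median are partly fixed by that filter. The 4 did not pass the filter of the fit of 8 libraries. Summed over the list, neuropeptides stood at 623, 77.2 and 0 CPM in MIP nuclei and at 1838, 562 and 747 CPM in the other neurons. Penk, the proenkephalin gene (chromosome 4, 4133531 to 4138819, GRCm38), was at 172, 9.36 and 0 CPM, in 26 of 79, 2 of 46 and 0 of 4 nuclei (log2 fold change -4.42, SE 0.72, adjusted p = 4.18e-07). Sst, the somatostatin gene, was at 128, 7.02 and 0 CPM, and Nts, the neurotensin gene, at 84.9, 4.68 and 0 CPM. Pnoc was at 93.5, 7.02 and 0 CPM.

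The uninjured references differ for these genes. Untraced replicate 1, with 6 MIP nuclei, held 0 CPM of Penk and of Sst, 27.5 CPM of Nts and 110 CPM of Pnoc, the last from 1 nucleus. For Penk and Sst the hemisection values therefore overlap with that uninjured library, and of these 4 genes Pnoc was also called against it (log2 fold change -3.96, adjusted p = 0.0347).

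Slc32a1, the shared vesicle loader of both transmitters, stood at 299, 30.4 and 15.8 CPM, with 179 CPM in untraced replicate 1, and it was seen in 68 of 79, 6 of 46 and 1 of 4 nuclei. It was called lower against both uninjured references (log2 fold change -3.45, SE 0.52, adjusted p = 2.15e-08 against the uninjured library, and -2.52, SE 0.69, adjusted p = 0.0495 against untraced replicate 1, which becomes 1 with 8 libraries). The other inhibitory genes gave log2 fold changes of -0.19 (SE 0.45) for Gad2, -0.15 (SE 0.44) for Slc6a5 and 0.28 (SE 0.51) for Gad1, none of them called. Atp6v0c, a subunit of the vesicular proton pump, was at 743, 63.2 and 78.8 CPM with 454 CPM in untraced replicate 1. It was called against both references, as were Pcsk1n and Resp18, proteins of secretory granules. With 8 libraries Atp6v0c, Pcsk1n and Resp18 were not called against the untraced libraries (adjusted p = 0.496, 0.626 and 0.626, edgeR).

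The groups that follow were called against the uninjured library only: against untraced replicate 1, 0 mitochondrial, sterol synthesis, chaperone or neurofilament genes were called with edgeR, with medians of 0.6, -1.96, -0.98 and -0.28. Of 12 mitochondrially encoded transcripts tested, 10 were called lower, with a median of -3.56. Their sum was 4415, 419 and 315 CPM in MIP nuclei and 4648, 600 and 703 CPM in the other neurons. mt-Co3 stood at 832, 60.9 and 31.5 CPM, but it was also at 27.5 CPM in untraced replicate 1, and between the 2 uninjured references 8 of the 12 were called lower in the untraced library. All 11 sterol synthesis genes tested had negative fold changes, and 4 were called, among them Cyp51 and Fdft1, with a median of -2.58. The 4 called sterol genes likewise passed the filter only through uninjured libraries. The sterol list summed to 860, 229 and 110 CPM in MIP nuclei and to 758, 198 and 210 CPM in the other neurons. Cyp51, the sterol demethylase of that pathway, was at 121, 18.7 and 15.8 CPM with 110 CPM in untraced replicate 1 (log2 fold change -2.75, SE 0.65, adjusted p = 0.0021).

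Of 9 chaperone genes tested, 6 were called lower with a median of -2.1, among them Hspa5, the main chaperone of the endoplasmic reticulum, at 188, 49.1 and 0 CPM with 55 CPM in untraced replicate 1, close to hemisection replicate 1. The chaperone list summed to 1834, 555 and 725 CPM in MIP nuclei and to 1980, 674 and 586 CPM in the other neurons. Of 9 neurofilament and axon cytoskeleton genes, Nefl, Nefm, Nefh and Stmn3 were called lower. That list summed to 2282, 1414 and 1419 CPM in MIP nuclei and to 2282, 1460 and 1336 CPM in the other neurons. Nefl stood at 113, 23.4 and 0 CPM with 82.5 CPM in untraced replicate 1, while Nefm was at 0 CPM there. Of 14 receptor subunits for glycine and GABA, 15 for glutamate, 18 channels, 17 synaptic release genes and 10 regeneration-associated genes tested, 0 were called with edgeR, with medians of 0.11, 0.13, -0.27, -0.28 and 0.06. Tmc1, a mechanotransduction channel of hair cells, was at 81.2, 0 and 0 CPM, at least 13.3-fold lower, but its 66 UMIs came from 6 nuclei. Dipk1b was at 54.2, 0 and 0 CPM, at least 8.86-fold lower.

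**Figure D4:**
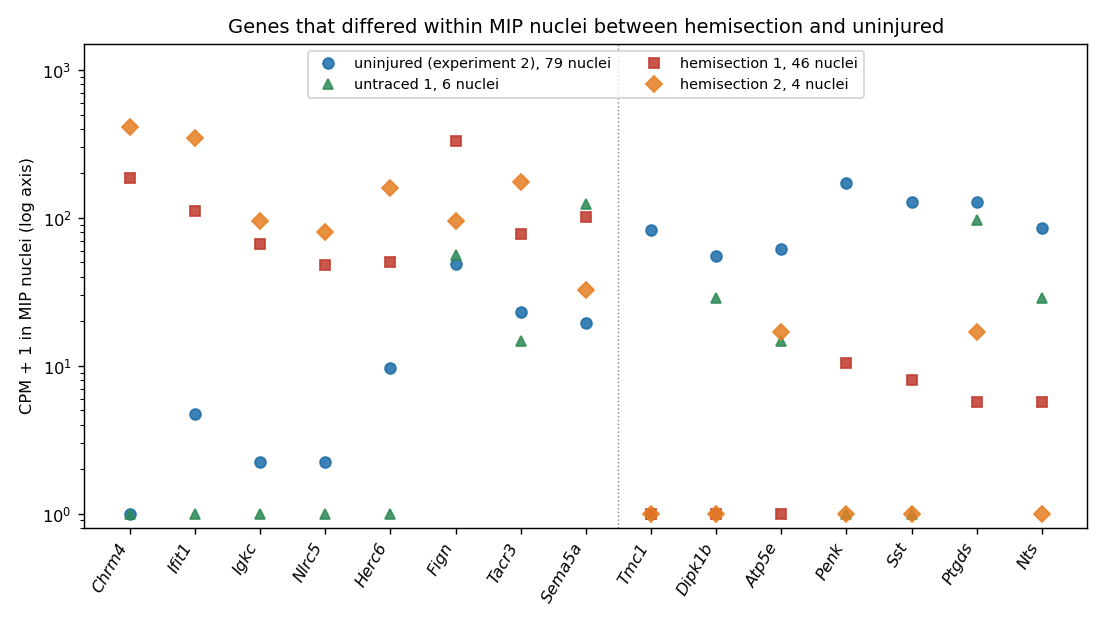
Level in MIP nuclei (y axis, CPM + 1, log axis) in 4 libraries of genes called between hemisection and the uninjured library of experiment 2 (x axis). They are the 8 largest rises and 7 of the 8 largest falls among genes averaging 20 CPM or more whose groups did not overlap. Unnamed gene models, mitochondrial and ribosomal protein genes were left out. By this choice both hemisection libraries lie above the uninjured library left of the dotted line and below it on the right. Untraced replicate 1 lies with hemisection for Sema5a, Tmc1, Atp5e, Penk and Sst.

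The other references give fewer calls. Against untraced replicate 1, 34 of 6482 genes were called (0.525%), 27 higher and 7 lower after hemisection. With all 8 libraries 2 were called, Ebf1 and Gpc3, and with DESeq2 6. Past 4-fold, with no test, 212 were higher and 248 lower of 6818 genes (6.75%), or 281 and 164 with TMM scaling. These calls lean on the 6 nuclei of untraced replicate 1: Ebf1 was at 0 CPM there and at 686 and 158 CPM after hemisection, at least 16.6-fold and 3.82-fold above the floor of 3 counts there, and 110 of its 293 UMIs in replicate 1 came from 1 nucleus. Gpc3, Col25a1 and Rorb were also at 0 CPM there. Col25a1 stood at 758 CPM in untraced replicate 2, and it was not called with all 8 libraries (adjusted p = 1).

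Between the uninjured groups, where no injury separates the libraries, 23 of 6482 genes were called (0.355%), 22 lower in the untraced fraction and 1 higher, Mettl23, with 7 called with all 8 libraries and 1, Cmss1, with DESeq2. Past 4-fold, with no test, 149 were higher and 282 lower of 7127 genes (6.05%), or 110 and 353 with TMM scaling. Among the 22 were mitochondrial transcripts, Ebf1, Penk, Nefm and Cmss1, the last at 192 CPM against 2140 CPM in the uninjured library of experiment 2. This contrast shares the uninjured library with the comparison above and the untraced library with the one before it. Traced MIP nuclei entered the fit of all 8 libraries alone, since their libraries hold 19112 and 17439 MIP UMIs. Traced against untraced, 0 of 2388 genes were called (0%), with 119 at an unadjusted p under 0.05 (edgeR) and 0 called with DESeq2 (45 unadjusted). Without traced replicate 1, 10 genes were called.

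The hemisection differences were set beside those in the other neurons of the same libraries. Chrm4 in the other neurons was at 0.151, 80.5 and 80.4 CPM, Ifit1 at 3.41, 52.6 and 96.7 CPM, and Slc32a1 at 145, 19.7 and 24.4 CPM. When the difference of the 2 effects was tested, with library as a block, 3 of 6482 genes were called (0.0463%), with 131 at an unadjusted p under 0.05, and 0 of 2388 with all 8 libraries (edgeR; 17 at an unadjusted p under 0.05), where Penk, Nts and Tmem163 were not among those tested.

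The 3 genes were Penk, Nts and Tmem163. In the other neurons Penk stood at 141, 79.5 and 123 CPM, so that it fell more in MIP nuclei, by 3.68 on the log2 scale (SE 0.71, adjusted p = 0.00161). Nts stood at 174, 94 and 204 CPM in the other neurons, and its fall in MIP nuclei was larger by 3.69 (SE 0.86, adjusted p = 0.0473). Tmem163 was at 173, 219 and 176 CPM in the other neurons and at 3.69, 65.5 and 0 CPM in MIP nuclei, a difference of 3.52 (SE 0.83, adjusted p = 0.0473). Its MIP values in hemisection lie on both sides of the uninjured value, and 18 of its 28 UMIs in replicate 1 came from 1 nucleus. The effects on Slc32a1 and Ifit1 differed by -0.59 (SE 0.6) and 1.23 (SE 0.95), and neither was called. For Chrm4 the fitted difference was 4.16 (SE 5.54), also not called. It stands against MIP counts of 0 in the uninjured libraries of the fit and is no measure of size.

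**Figure D5:**
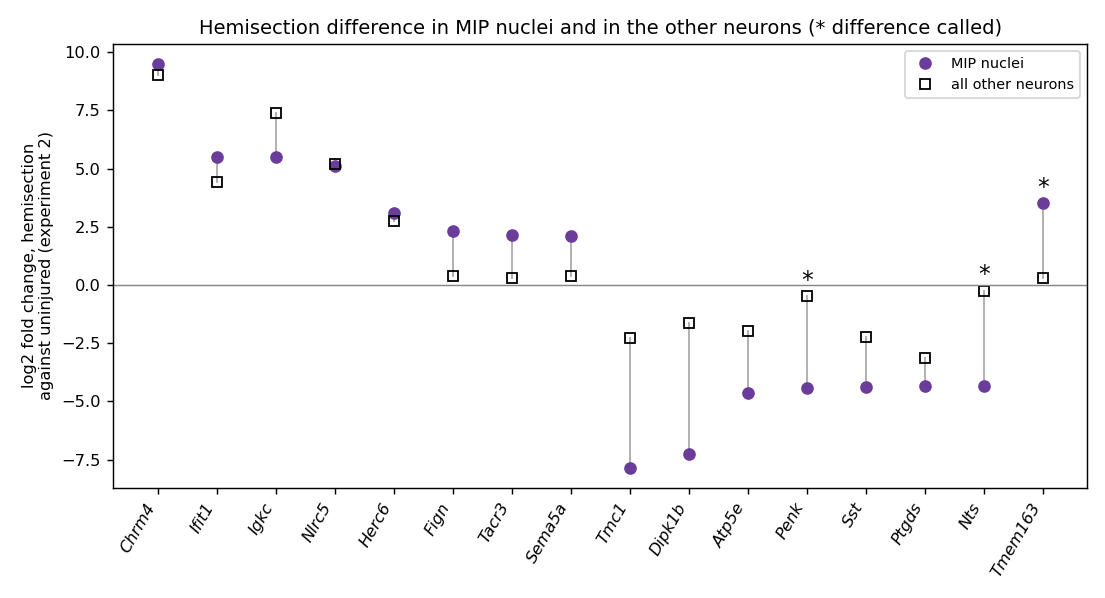
Log2 fold change between hemisection and the uninjured library of experiment 2 (y axis) in MIP nuclei and in all other neurons for 15 of the 16 genes called within MIP nuclei with the largest changes and for Tmem163 (x axis). An asterisk marks the 3 genes whose 2 effects were called different, and the fitted values of Chrm4, Tmc1 and Dipk1b stand against counts of 0 and are no measure of size.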

How the data were processed

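Nuclei of 8 libraries (10x v3, per the labels) were processed by the submitters, whose processing notes name Cell Ranger 4.0.0, Seurat 3, mm10 and GRCm38; which tool did what, the filters, doublet handling and annotation method are not stated in the text used here. The authors deposited unnormalized UMI counts of 19787 genes and an annotation, of which 1 column was not used. No filter and no doublet caller was added. Members and gene lists were chosen with earlier results of these data known. Levels are CPM of counts summed over nuclei. Sums were tested with edgeR 4.0.16 in R 4.3.3 (TMM, filterByExpr, quasi-likelihood, Benjamini-Hochberg over all features, calls under 0.05), with DESeq2 1.42.0 as an alternative, after a test on simulated data. Numbers of nuclei were tested with edgeR quasi-likelihood too, with the total of neurons as offset and without filterByExpr. There TMM and DESeq2 were alternatives. The planned minimum of 5 nuclei and 20000 UMIs left 3 libraries and no residual degrees of freedom, so gene tests use the 4 libraries with at least 1 nucleus and 20000 UMIs, and traced nuclei enter a fit of all 8. Named genes are the 20 highest and 8 lowest ratios, the 8 largest called rises and falls among genes averaging 20 CPM or more whose groups did not overlap, and list members; the other named genes (Nos1, Slc32a1, Atp6v0c, Pcsk1n and Resp18 among them) were chosen after their values were seen. From the called rises and falls, unnamed gene models, mitochondrial and ribosomal protein genes were left out. List members under 10 MIP UMIs were not compared with other neurons. Some genes and subtypes are not reported here. Titles number the traced and untraced fractions alike without saying that a number is 1 animal, so the replicate block is an alternative (correlation of same-numbered deviations 0.159 over 8148 genes). Coordinates come from GENCODE M21. Replicate libraries differed by more than counting noise (chi-square per degree of freedom 2.57 to 4.14), and intervals cover counting error only.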

Additional observations from a re-analysis of the deposited data

Results flagged for a closer look

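Among genes tested within MIP nuclei, 3 had a hemisection difference that departed from that of the other neurons in a test of the difference itself. The value was -3.68 for Penk, -3.69 for Nts and 3.52 for Tmem163 (log2, MIP minus other neurons). Without untraced replicate 1 in the fit 1 gene was called, Penk, at -3.76 (adjusted p = 0.00147, edgeR). Penk was already at 0 CPM in the 6 MIP nuclei of untraced replicate 1, against 160 CPM in the other neurons of that library. Nts stood there at 27.5 CPM against 208 CPM. For Tmem163, hemisection replicate 2 held 0 UMIs in 4 nuclei.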

How the results depend on the processing

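The MIP share kept its direction and was not called under any alternative run: log2 differences of 0.23 to 1.08 for traced against untraced, 0.01 to 0.32 for hemisection and -1.65 to -0.98 for regenerating; with the replicate block, traced against untraced gave 0.6 (adjusted p = 0.661). Counts of genes past 4-fold, main values 216, 460 and 431 (hemisection against uninjured, hemisection against untraced, untraced against uninjured), rose to 1422, 3716 and 4049 with no filter beyond 1 UMI, which adds genes of few counts. The first 2 became 672 and 1189 without hemisection replicate 1 (replicate 2 in its place), and the first 674 with nuclei thinned to 2000 UMIs. Tested counts of 147, 34 and 23 became 25, 2 and 7 with all 8 libraries, where fewer genes were tested, and 0, 6 and 1 with DESeq2 (55, 66 and 44 at an unadjusted p under 0.05); the cause was not tested. The first became 15 in thinned nuclei, where 1709 genes were tested, 148 without untraced replicate 1 and 138 without nuclei under 2000 UMIs, an alternative chosen, like the fit of 8 libraries, after seeing the data. Leaving a library out of the fit of 8 gave 0 to 0, 0 to 4 and 0 to 10 calls. The 3 genes that differed from other neurons became 0 with 8 libraries and 1, Penk, without untraced replicate 1. Gad1 reversed to -0.56 against other inhibitory neurons, and 11, 12 and 6 of the other 28 described genes moved by more than 1 SD over libraries, with that reference, with pooled counts and with thinned nuclei. A minimum of 10 nuclei leaves 2 libraries and no test, the interaction was not run with DESeq2, and the MIP neurons have 1 subtype, so no largest one was set apart. Traced against untraced, added after seeing the data, 0 genes were called with 8 libraries, 0 with the replicate block (137 at an unadjusted p under 0.05, edgeR) and 0 to 10 with a library left out. Depth limits every library but the uninjured one and hemisection replicate 1: a count of 0 allows 41.2 CPM in untraced replicate 1 and 47.3 CPM in hemisection replicate 2.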
